A study of Mus musculus with 12 samples.

Results

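The genes described here are 38 genes of glycolysis and of the response to low oxygen, out of 53715 gene identifiers quantified in mouse pancreatic tumour organoids. They were listed by name, with earlier results of these data known, and were matched to Ensembl identifiers through the mouse GENCODE M21 annotation. They comprise 4 transporters of glucose and lactate, 17 glycolytic enzymes, 3 regulators of glycolytic flux, 12 targets of hypoxia-inducible factor (HIF) outside glycolysis, and 2 HIF subunits. In all, 35 of the 38 passed the filter on low counts. The other members, Slc2a3, Eno2 and Ldhb, had at most 0.82 TPM (transcript abundance corrected for length and scaled to the library) in any library.

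Organoids are 3-dimensional epithelial cultures, grown here in a Matrigel dome. They came from pancreatic ductal adenocarcinomas of C57/Bl6 mice, which carry Trp53LSLR172H switched on in the pancreatic lineage by Pdx1-Cre. The sample labels of all 12 libraries give the second Trp53 allele as LOH (loss of heterozygosity), whereas the series text gives it as +. The study deleted Spdef, which encodes an ETS transcription factor of secretory epithelium, and re-instated it, in the lines mT69a and mT6. In each line there were 3 conditions with 2 libraries each. "SPDEF" is an Spdef knockout clone (KO1) carrying the SPDEF-OE vector, "KO" is KO1 with the Empty vector, and "control" is a Rosa26 knockout clone with the Empty vector. The labels name a single clone for each condition, and within a line the same clone name, KO1, for SPDEF and KO. Clone and condition therefore cannot be told apart in comparisons with control. Nothing states whether the 2 libraries of a group came from separate cultures, so that the p-values reflect only how far these particular libraries spread, which may be technical.

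Mouse Spdef checked these labels only in part. The gene had 1 and 0 expected counts in mT6 libraries labelled SPDEF, 0 and 2 in mT6 KO libraries, and 30 and 29 in mT6 control libraries. In mT69a it had 2 and 0 counts in libraries labelled SPDEF, 2 and 0 in those labelled KO, and 2 and 4 in those labelled control. Thus endogenous Spdef was near 0 in all 3 mT69a groups, and the SPDEF-labelled libraries held at most 2 reads of it, as did the KO libraries. Transcript from the vector was not measured here. The SPDEF and mT69a groups are therefore named as labelled throughout, and every direction drawn from them rests on that label. Total expected counts were 9094295 to 28903831 per library. Mitochondrially encoded genes took 18.6% to 27.1% of the counts in libraries numbered 2 and 12.7% to 15.5% in those numbered 1. Markers of epithelium summed to 3424 to 5864 CPM (counts scaled to library size) in every library. The 10 fibroblast markers summed to 0 to 0.762 CPM, with Col3a1, Lum and Thy1 at 0, the 10 immune markers to 2.35 to 12.5 CPM, with Cd3e, Adgre1 and Ms4a1 at 0, and the 8 endothelial markers to 0.381 to 3.32 CPM, with Emcn at 0.

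Glycolysis splits glucose into pyruvate in the cytosol, and lactate dehydrogenase turns pyruvate into lactate, which leaves the cell through monocarboxylate transporters. Under low oxygen the alpha subunits of HIF escape hydroxylation by prolyl hydroxylases, accumulate and switch on glycolytic genes together with genes of angiogenesis, mitophagy and pH control. HIF binds DNA at hypoxia response elements whose core reads ACGTG or GCGTG. HIF-1 alpha is controlled mainly at the level of the protein, so that the level of its mRNA is not a measure of HIF activity. Pancreatic ductal adenocarcinoma is known as a poorly perfused, hypoxic tumour. Bulk RNA cannot tell fewer cells of a kind from less RNA per cell.

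On the length-normalised TPM scale the lower part of glycolysis was the most abundant. Gapdh, which oxidises glyceraldehyde 3-phosphate, had a median of 1729 TPM over the 12 libraries (879 to 3019.8 TPM). Pkm, pyruvate kinase, had a median of 1504 TPM (1117 to 2304 TPM). Ldha, which makes lactate, had a median of 941 TPM (680.0 to 1428 TPM). The ranges of these 3 genes overlapped. Aldoa, Pgk1, Eno1, Tpi1, Pgam1 and Gpi1 followed with medians of 263 to 698 TPM. At the committed steps, Pfkl had a median of 77.1 TPM, Pfkp 79.2 TPM and Pfkm 6.52 TPM, and Hk1 had 50.1 TPM against 19.2 TPM for Hk2. The paralogs Ldhb, best known from heart, and Eno2 and Slc2a3, best known from neurons, had medians of 0.055, 0.275 and 0.03 TPM. Among HIF targets outside glycolysis, Bnip3l, Ndrg1 and Egln3 were the most abundant by median, with 163, 133 and 131 TPM, and overlapped one another widely. Hif1a had a median of 38.6 TPM and Epas1, which encodes HIF-2 alpha, 6.64 TPM, and the ranges of these 2 subunits did not overlap.

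**Figure D1:**
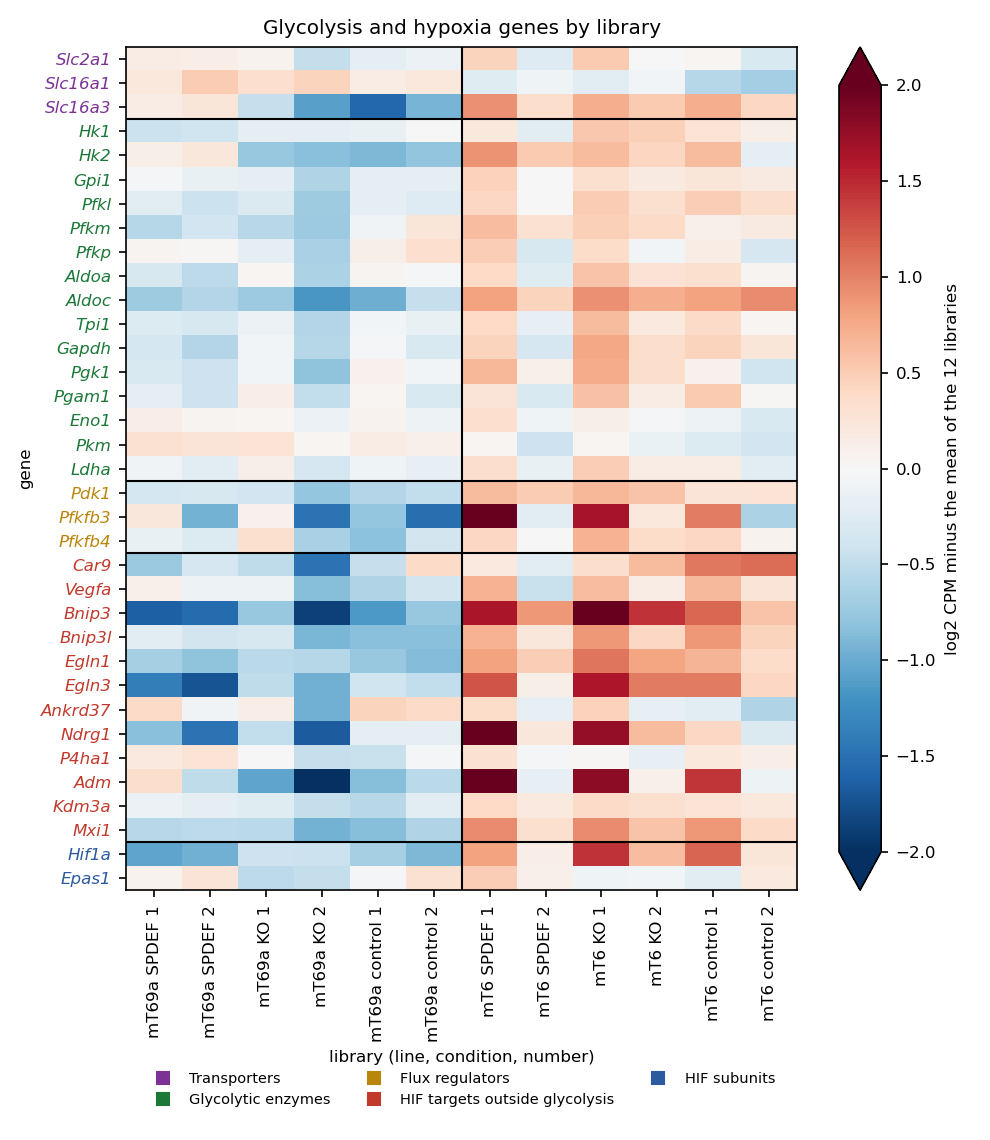
Level of the 35 members past the count filter in each library, as log2 CPM minus the mean of the 12 libraries (colour, saturated at 2 either way), with genes in rows grouped by role and libraries in columns. Most HIF targets and Hif1a were below their mean in the 6 mT69a libraries and above it in most mT6 libraries, while Slc16a1 and Pkm went the other way. Within mT6, libraries numbered 2 were mostly paler than libraries numbered 1.

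Most calls among these genes came from the comparison of the tumour lines. Averaged over the 3 conditions, 25 of the 35 members were lower and 2 were higher in mT69a than in mT6 (edgeR quasi-likelihood test, Benjamini-Hochberg adjusted p under 0.05). Over all 14473 genes tested, 45.2% passed in either direction, 22.5% higher and 22.7% lower in mT69a. The median log2 fold change was -0.65 over the members and -0.03 over all genes tested. By role, 10 of 12 HIF targets were lower and none higher (median -1.26), 10 of 15 enzymes were lower and 1 higher (median -0.46), and all 3 flux regulators were lower (median -0.97). All 6 mT69a libraries lay below all 6 mT6 libraries for 12 members, of which 6 are HIF targets and 3 are enzymes, and above them for 1 member. Over all genes tested, 17.3% did not overlap, 9.04% lying wholly below and 8.23% wholly above. In the control libraries alone, 2 for each line, 13 members were lower and 1 higher, against 28.2% of all genes called in either direction, 14.7% lower and 13.4% higher. That count was 7 without mT69a control library 1 and 8 without mT6 control library 1. With the replicate block 21 members were called there, against 41.8% of all genes. The libraries stand for 1 organoid line each, so the comparison describes these 2 lines.

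Among the transporters, the lactate carriers went opposite ways. Slc16a3 (MCT4), the exporter of strongly glycolytic cells, had a lowest, median and highest level of 42.9, 79.5 and 150.4 CPM in mT69a, and of 162, 196 and 238 CPM in mT6. Slc16a1 (MCT1), which carries lactate and pyruvate either way, had 199.9, 219 and 256 CPM in mT69a, and 113, 154 and 174 CPM in mT6. Neither gene overlapped between the lines. Slc16a3 was lower in mT69a, with a log2 fold change of -1.21 ± 0.16 (SE, adjusted p = 0.000189), and Slc16a1 was higher, at 0.62 ± 0.08 (adjusted p = 0.000129). Slc2a1 (GLUT1), the main glucose importer of tumour epithelium, differed by -0.16 ± 0.15 with an adjusted p of 0.409, and its levels, with medians of 179 CPM in mT69a and 185 CPM in mT6, overlapped.

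The RefSeq promoters of these 2 lactate carriers are shown because both hold the HIF core while their levels went opposite ways. Each window runs from 250 bases before to 50 bases after the annotated start, on GRCm38.p6, and is written 5′ to 3′ in the gene's direction. Capitals mark ACGTG and GCGTG on either strand, so that the reverse strand reads CACGT and CACGC, and CACGTG, where both overlap, counts on both strands.
Slc16a3 (chr11:120948817-120949116, plus strand): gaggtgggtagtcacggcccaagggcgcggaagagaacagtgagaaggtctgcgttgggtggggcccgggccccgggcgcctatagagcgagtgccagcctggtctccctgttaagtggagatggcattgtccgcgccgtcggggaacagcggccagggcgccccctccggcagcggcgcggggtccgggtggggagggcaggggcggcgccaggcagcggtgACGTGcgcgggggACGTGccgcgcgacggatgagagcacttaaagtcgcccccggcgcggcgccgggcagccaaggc
Slc16a1 (chr3:104638414-104638713, plus strand): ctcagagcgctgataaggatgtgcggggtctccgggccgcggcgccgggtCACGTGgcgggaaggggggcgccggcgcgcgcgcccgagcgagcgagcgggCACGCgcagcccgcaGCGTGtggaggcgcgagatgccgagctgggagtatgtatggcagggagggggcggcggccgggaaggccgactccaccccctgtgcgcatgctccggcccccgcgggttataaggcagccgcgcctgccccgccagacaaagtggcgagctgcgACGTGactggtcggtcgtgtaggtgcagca
The window of Slc16a3 holds ACGTG 2 times, and that of Slc16a1 holds ACGTG 3 times and GCGTG 2 times, counted over both strands.

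Of the enzymes, Aldoc and Hk2 differed most. Aldoc, the aldolase of brain and of some tumours, had a lowest, median and highest level of 23.7, 32.3 and 38.7 CPM in mT69a, and of 72.3, 92.7 and 102 CPM in mT6. No library overlapped, and the log2 fold change was -1.53 ± 0.12 (adjusted p = 5.02e-06). Hk2, the inducible hexokinase that commits glucose to the pathway, had 47.9, 52.4 and 104 CPM in mT69a, and 79.1, 133 and 166 CPM in mT6. The lines overlapped through the SPDEF-labelled mT69a libraries, at 97.1 and 104 CPM, and mT6 control library 2, at 79.1 CPM, and the log2 fold change was -1.0 ± 0.13 (adjusted p = 0.000194). Pfkl, the liver-type phosphofructokinase, fell by 0.69 ± 0.10 on the log2 scale in mT69a (adjusted p = 0.000403) with no overlap between 149 to 214 CPM in mT69a and 243 to 345 CPM in mT6. Its muscle-type paralog Pfkm had 8.79 to 17.2 CPM in mT69a and 15.5 to 22.2 CPM in mT6, a log2 fold change of -0.68 ± 0.09 (adjusted p = 0.000243). By pairs of same-numbered libraries, Pfkm differed by -0.15 and 0.07 in control, and by -1.17 to -0.69 in KO and SPDEF-labelled libraries.

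The remaining called enzymes were lower by less. Hk1, the housekeeping hexokinase, Gpi1, which isomerises glucose 6-phosphate, and Aldoa each had a log2 fold change of -0.46. Tpi1, the triose isomerase, had -0.51, Pgk1, the first ATP-yielding enzyme, -0.52 and Gapdh -0.65, with adjusted p of 0.00138 to 0.0248 over these 6 genes. By pairs of same-numbered libraries, Pgk1 differed by -0.01 and 0.35 in control, and by -1.15 to -0.50 in KO and SPDEF-labelled libraries. The calls of Aldoa and Pgk1 were each lost in 7 of the 12 fits that left out 1 library. Aldoa held its call only without mT69a SPDEF library 1, mT69a KO library 1, or library 2 of any mT6 condition, and its adjusted p went up to 0.0788. Pgk1 held only without mT69a KO library 1, mT69a control library 1, or library 2 of any mT6 condition, and its adjusted p went up to 0.0664. Pkm was the only called enzyme that was higher in mT69a, at 3233 to 3923 CPM in mT69a and 2373 to 3256 CPM in mT6, a log2 fold change of 0.37 ± 0.10 (adjusted p = 0.0129). In all 3 limma fits on TPM the line calls of Pkm, Gapdh, Tpi1, Gpi1, Aldoa and Pgk1 were lost, with adjusted p of 0.143 to 0.28 for Pkm and of 0.0685 to 0.315 over the other genes.

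Pgam1, Ldha, Pfkp and Eno1 did not pass. Pgam1, phosphoglycerate mutase, had a log2 fold change of -0.41 ± 0.16 (adjusted p = 0.0549) and Ldha -0.26 ± 0.13 (adjusted p = 0.123). Libraries with the same number deviated together, and with the number as a block in the edgeR fit both were lower, at -0.41 (adjusted p = 8.65e-05) for Pgam1 and -0.25 (adjusted p = 0.00487) for Ldha. Under the block 29 members were called and 56.2% of all genes.

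All 3 flux regulators were lower in mT69a. Pdk1, the kinase that shuts pyruvate out of the mitochondrial dehydrogenase, had a lowest, median and highest level of 77.3, 97.2 and 105 CPM in mT69a, and of 158, 192 and 208 CPM in mT6, with no overlap. Its log2 fold change was -0.97 ± 0.08 (adjusted p = 7.27e-06). Pfkfb3, which makes the activator of phosphofructokinase, had 7.07, 11.1 and 23.6 CPM in mT69a and 13, 32.1 and 102 CPM in mT6. It varied by number as well as by line, and its log2 fold change was -1.62 ± 0.57 (adjusted p = 0.0484). That call was lost in 11 of the 12 fits without 1 library, with an adjusted p up to 0.159, and held only without mT6 SPDEF library 2; with the block its adjusted p was 0.000789. Pfkfb4, its paralog, had 3.94 to 8.65 CPM in mT69a and 6.93 to 11.3 CPM in mT6, a log2 fold change of -0.62 ± 0.18 (adjusted p = 0.0175, and 0.0587 without mT69a control library 1). Pfkfb3 and Pfkfb4 also lost their calls in all 3 limma fits on TPM, with adjusted p of 0.0516 to 0.187.

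HIF targets outside glycolysis showed the widest gaps, among them the mitophagy receptors. Bnip3 had a lowest, median and highest level of 31.1, 45.2 and 67.2 CPM in mT69a, and of 168, 279.6 and 479 CPM in mT6. The lines did not overlap, and Bnip3 was 5.93-fold lower in mT69a (log2 fold change -2.57 ± 0.24, adjusted p = 3.72e-05). Its paralog Bnip3l had 101 to 162 CPM in mT69a and 222 to 349 CPM in mT6 (-1.18 ± 0.14, adjusted p = 0.000103).

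The prolyl hydroxylases that mark HIF alpha for destruction, themselves HIF targets, were lower too. Egln3 (PHD3) had a lowest, median and highest level of 99.1, 199 and 247 CPM in mT69a, and of 353, 671 and 1003 CPM in mT6. Egln1 (PHD2), the main oxygen sensor, had 37.6, 41.9 and 47.3 CPM in mT69a, and 88.6, 115 and 145 CPM in mT6. Neither overlapped between the lines, with log2 fold changes of -1.87 ± 0.22 for Egln3 (adjusted p = 0.000121) and -1.41 ± 0.09 for Egln1 (adjusted p = 1.51e-06). These genes lie on chromosomes 12 and 8, where the median of all tested genes was -0.33 and -0.35 in this comparison; the medians of the other chromosomes lay between -0.15 and 0.15. In the control libraries alone the median was -0.01 on chromosome 12 and -0.34 on chromosome 8, where Egln3 differed by -1.21 (adjusted p = 0.0368) and Egln1 by -1.35 (adjusted p = 0.000209). The control value of Egln3 ran from -1.48 to -0.86 when 1 library was left out. All 3 limma fits on TPM lost that Egln3 call, with adjusted p of 0.155 to 0.295. The part of copy number in these differences was not tested.

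Mxi1, a MAX-binding antagonist of MYC, and Kdm3a, a histone demethylase, likewise did not overlap. Mxi1 had 31.3 to 41.9 CPM in mT69a and 74.7 to 116 CPM in mT6 (-1.35 ± 0.14, adjusted p = 4.64e-05), and Kdm3a had 55.5 to 75.2 CPM in mT69a and 93.3 to 108 CPM in mT6 (-0.59 ± 0.08, adjusted p = 0.000287). Further targets were lower with overlap between the lines. Ndrg1, a stress-responsive gene, had 118 to 329 CPM in mT69a and 303 to 1605 CPM in mT6 (-1.71 ± 0.38, adjusted p = 0.00589). By pairs of same-numbered libraries, Ndrg1 differed by -0.61 and 0.12 in control, and by -2.95 to -1.70 in KO and SPDEF-labelled libraries. Adm, the vasodilator adrenomedullin, had 3.31 to 30.6 CPM in mT69a and 21.4 to 128 CPM in mT6 (-2.0 ± 0.57, adjusted p = 0.0224). Car9, the carbonic anhydrase that acidifies the outside of hypoxic cells, had 8.44 to 30.6 CPM in mT69a and 20.3 to 50.8 CPM in mT6 (-1.0 ± 0.19, adjusted p = 0.0023). Within pairs of libraries of the same condition and number, Mxi1, Kdm3a, Adm and Car9 were lower in 6 of 6 and Ndrg1 in 5 of 6. Vegfa, the angiogenic growth factor, had 98.8 to 191 CPM in mT69a and 131 to 289 CPM in mT6 (-0.67 ± 0.21, adjusted p = 0.0273). Vegfa lost its call in all 3 limma fits on TPM, with adjusted p of 0.119 to 0.226, and in 8 fits without 1 library, with an adjusted p up to 0.0793, and held it without mT69a KO library 1 or library 2 of any mT6 condition. Adm lost its call, with an adjusted p up to 0.0723, without mT69a SPDEF library 2, mT69a KO library 2, mT69a control library 1, or library 1 of any mT6 condition. P4ha1, a collagen prolyl hydroxylase, at -0.15 ± 0.11 (adjusted p = 0.296), and Ankrd37, at 0.14 ± 0.20 (adjusted p = 0.597), did not pass.

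Of the HIF subunits, Hif1a had a lowest, median and highest level of 71.3, 86.4 and 111 CPM in mT69a, and of 162, 243 and 402 CPM in mT6. It did not overlap and had a log2 fold change of -1.53 ± 0.20 (adjusted p = 0.000246). Hif1a too lies on chromosome 12, and in the control libraries alone it differed by -1.55 (adjusted p = 0.00934). That control value ran from -1.94 to -1.01 when 1 library was left out. All 3 limma fits on TPM lost the control call of Hif1a, with adjusted p of 0.0816 to 0.182. Epas1 had 21.9 to 38.9 CPM in mT69a and 27.3 to 44.3 CPM in mT6, and did not pass, at -0.15 ± 0.11 (adjusted p = 0.276).

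**Figure D2:**
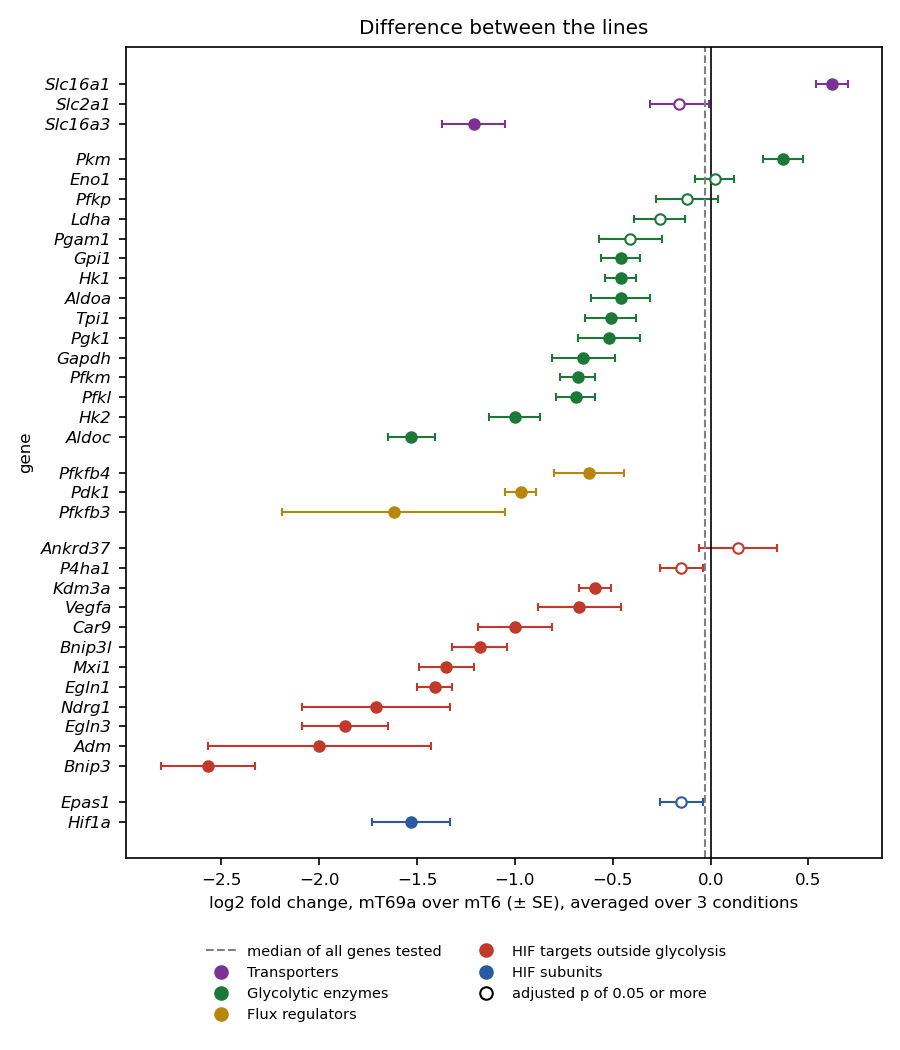
Log2 fold change of mT69a over mT6 for the 35 members past the count filter, averaged over the 3 conditions, with the standard error as bars and genes grouped by role. Open circles did not pass, and the dashed line is the median of all genes tested, at -0.03. Bnip3 lies farthest to the left, at -2.57, and Slc16a1 and Pkm are the filled points to the right of 0.

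Promoters of the most different HIF target, of a hydroxylase and of the 2 most different enzymes are shown to set the HIF core beside those differences, with capitals as above.
Bnip3 (chr7:138909457-138909756, minus strand): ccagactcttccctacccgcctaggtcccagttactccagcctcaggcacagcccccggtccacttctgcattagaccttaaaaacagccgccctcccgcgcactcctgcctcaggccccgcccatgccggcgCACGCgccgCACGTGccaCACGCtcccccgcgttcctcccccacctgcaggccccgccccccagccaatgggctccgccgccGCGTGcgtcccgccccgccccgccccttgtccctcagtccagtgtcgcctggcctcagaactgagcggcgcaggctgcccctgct
Egln3 (chr12:54203825-54204124, minus strand): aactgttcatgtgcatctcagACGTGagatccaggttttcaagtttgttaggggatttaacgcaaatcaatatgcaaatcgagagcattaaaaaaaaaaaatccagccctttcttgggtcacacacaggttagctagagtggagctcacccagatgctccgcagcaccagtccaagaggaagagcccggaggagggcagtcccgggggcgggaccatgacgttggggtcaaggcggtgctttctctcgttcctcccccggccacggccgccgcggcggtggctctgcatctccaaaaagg
Aldoc (chr11:78322823-78323122, plus strand): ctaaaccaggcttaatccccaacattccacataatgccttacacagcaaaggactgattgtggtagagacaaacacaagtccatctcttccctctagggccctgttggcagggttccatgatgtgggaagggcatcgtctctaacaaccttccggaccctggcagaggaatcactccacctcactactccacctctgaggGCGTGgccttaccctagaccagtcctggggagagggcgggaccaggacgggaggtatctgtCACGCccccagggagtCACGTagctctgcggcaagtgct
Hk2 (chr6:82774405-82774704, minus strand): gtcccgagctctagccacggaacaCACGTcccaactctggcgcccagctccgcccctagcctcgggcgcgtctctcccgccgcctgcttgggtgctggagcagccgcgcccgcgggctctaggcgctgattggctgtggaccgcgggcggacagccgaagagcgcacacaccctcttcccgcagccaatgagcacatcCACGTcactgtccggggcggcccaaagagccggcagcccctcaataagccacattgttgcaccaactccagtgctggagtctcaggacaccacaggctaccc
RefSeq gave a promoter for 34 of the 38 members, with 52 windows because some genes have several starts; Aldoc has a second window, not shown. Slc2a3, Bnip3l, Ndrg1 and Epas1 had no entry. At least 1 window held ACGTG on either strand for 23 of the 34 genes, or 67.6%, against 21.8% of 27025 genes with a promoter. For GCGTG the shares were 22 of 34 genes, or 64.7%, against 35.2% of all genes. ACGTG was present in 10 of 17 enzymes, in 8 of the 10 HIF targets with a window and in all 3 transporters with one. Counted per window, ACGTG was in 51.9% of member windows and 19.6% of all 32851 windows. Base composition was not matched, and the genes were listed in part because HIF regulates them.

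Lists of related genes gave the following counts between the lines, where 45.2% of all genes were called, 22.5% higher and 22.7% lower in mT69a. Of 33 other HIF-responsive genes, 31 were measured, and 22 were lower and 3 higher in mT69a (median -0.91). Plod2, a collagen lysyl hydroxylase, had 7.69 to 17 CPM in mT69a and 132 to 183 CPM in mT6 (-3.59 ± 0.09, adjusted p = 6.58e-09). Gbe1, the glycogen branching enzyme, had 3.86 to 6.09 CPM in mT69a and 33.2 to 117 CPM in mT6 (-3.53 ± 0.20, adjusted p = 8.37e-07). Tmem45a went the other way, at 1.68 to 69.6 CPM in mT69a and 0.117 to 2.3 CPM in mT6 (4.54 ± 0.29, adjusted p = 1.81e-06). Within mT69a it also differed by condition. It had 3.13 and 1.68 CPM in mT69a control, 69.6 and 55.4 CPM in KO, and 35.5 and 29.9 CPM in SPDEF-labelled libraries. KO over control in mT69a was 4.69 ± 0.40 for this gene (adjusted p = 9.57e-05). Of 11 measured HIF pathway regulators, 5 were lower and none higher, a share called near that of all genes, including Vhl, the ligase component that recognises hydroxylated HIF (-0.76 ± 0.16, adjusted p = 0.00266), Eloc, its elongin C partner (-0.56 ± 0.07, adjusted p = 0.000121), and Hif3a, a HIF paralog that can oppose HIF-1 (-3.31 ± 0.22, adjusted p = 1.61e-06).

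In lists of neighbouring pathways the counts are to be read against the 45.2% of all genes called between the lines, 22.5% higher and 22.7% lower in mT69a. Of 12 measured other glycolysis genes, 8 were higher and 1 lower in mT69a (median 0.47), among them Mpc2, a subunit of the mitochondrial pyruvate carrier (1.08 ± 0.10, adjusted p = 1.8e-05). Of 25 measured genes of pyruvate dehydrogenase and the TCA cycle, 10 were higher and 3 lower (median 0.08), led by Idh3a, a subunit of isocitrate dehydrogenase (0.83, adjusted p = 1.36e-05), Pdp1, the phosphatase that reactivates pyruvate dehydrogenase (0.77, adjusted p = 7.34e-05), and Cs, citrate synthase (0.68, adjusted p = 0.000132). Of 8 pentose phosphate genes, 3 were higher and none lower, and of 4 measured gluconeogenesis genes 2 were higher and 1 lower. The shares called among the TCA cycle and pentose phosphate genes were near that of all genes.

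Pkm makes its 2 main transcripts with alternative exons of equal length. The M1 exon gives the pyruvate kinase of muscle and brain, and the M2 exon that of proliferating cells. The exons are shown because they separate the transcripts, with capitals at the bases that differ. They lie on the plus strand of GRCm38.p6, the M1 exon at chr9:59675029-59675195 and the M2 exon at chr9:59675568-59675734.
M1 exon (Pkm-202): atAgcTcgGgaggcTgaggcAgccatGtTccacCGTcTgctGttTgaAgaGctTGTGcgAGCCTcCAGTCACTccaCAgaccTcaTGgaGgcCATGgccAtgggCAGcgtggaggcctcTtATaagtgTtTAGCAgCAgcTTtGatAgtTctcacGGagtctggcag
M2 exon (Pkm-201): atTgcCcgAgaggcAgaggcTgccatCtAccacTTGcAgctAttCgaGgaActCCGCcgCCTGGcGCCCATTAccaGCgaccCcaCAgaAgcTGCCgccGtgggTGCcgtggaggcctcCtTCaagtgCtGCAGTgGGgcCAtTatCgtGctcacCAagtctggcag
Of their 167 bases, 103 are identical, or 61.7%. By the authors' deposited isoform percentages, Pkm-202 held 7.7% and 7.21% of Pkm in mT69a SPDEF-labelled libraries, 6.52% and 7.13% in KO, and 7.3% and 6.1% in control. In mT6 it held 10.7% and 13.4% in SPDEF-labelled libraries, 11.9% and 12.1% in KO, and 13.2% and 13.8% in control. All 6 mT69a libraries lay below all 6 mT6 libraries, with medians of 7.17% and 12.7%. Pkm-201 held 86.7% to 90.5% in mT69a and 73% to 86.8% in mT6. Another transcript, Pkm-211, varied between libraries and reached 10.3% in mT6 SPDEF library 2, the library with the lowest share of Pkm-201.

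**Figure D3:**
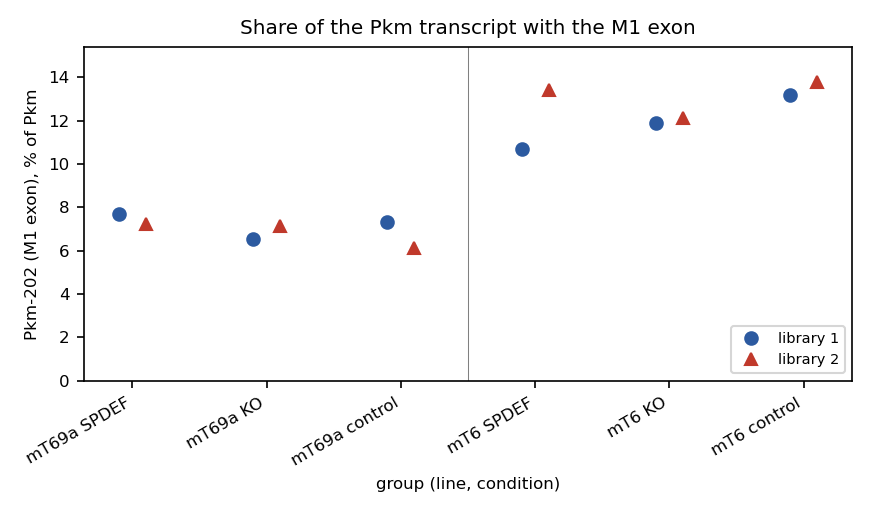
Share of Pkm held by the transcript with the M1 exon (Pkm-202), in percent, for each library by line and condition. The mT69a libraries sit between 6.1% and 7.7% and the mT6 libraries between 10.7% and 13.8%.

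Few of these genes passed the test between Spdef knockout and control. Averaged over the lines, edgeR called 0 of 35 members between KO and control libraries, against 5.60% of all genes; 4 members had an unadjusted p under 0.05 and DESeq2 called 2. The median log2 fold change was 0.03 for enzymes and 0.07 for HIF targets, and 0.00 for all genes. Slc16a1 had 154 and 174 CPM in mT6 KO libraries against 122 and 113 CPM in mT6 control libraries, and 229 and 246 CPM in mT69a KO libraries against 199.9 and 209 CPM in mT69a control libraries. The groups did not overlap in either line, and the log2 fold change was 0.35 ± 0.09 (adjusted p = 0.0627). Egln1 had 145 and 119 CPM in mT6 KO against 110.4 and 88.6 CPM in mT6 control, and 47.3 and 46.1 CPM in mT69a KO against 40.5 and 37.6 CPM in mT69a control, again without overlap within a line (0.33 ± 0.11, adjusted p = 0.127). With the replicate block both were higher in KO, Slc16a1 at 0.35 (adjusted p = 0.00668) and Egln1 at 0.33 (adjusted p = 0.0083), and 15.0% of all genes were called. Car9 went the other way, with 30.1 and 36.5 CPM in mT6 KO against 49 and 50.8 CPM in mT6 control. In mT69a it had 16.6 and 8.44 CPM in KO against 17.1 and 30.6 CPM in control, again without overlap within a line. Car9 was not called here with or without the block.

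The lines taken singly gave few calls as well. In mT6, edgeR called 0 members against 3.23% of all genes, with 5 members at an unadjusted p under 0.05 and 1 called by DESeq2. Under the block 3 members were higher in mT6 KO, Pgk1 (0.71, adjusted p = 0.00759), Slc16a1 (0.48, adjusted p = 0.0103) and Egln1 (0.41, adjusted p = 0.0194), against 12.5% of all genes. In mT69a, 1 member was lower, against 8.60% of all genes, 4.88% higher and 3.71% lower. Pfkm had 9.84 and 8.79 CPM in mT69a KO libraries and 13.9 and 17.2 CPM in mT69a control libraries, without overlap, a log2 fold change of -0.74 ± 0.17 (adjusted p = 0.0201). The call was lost without mT69a KO library 1, mT69a KO library 2 or mT69a control library 2, with an adjusted p up to 0.148. Under the block Epas1 (-0.64, adjusted p = 0.0166) and Ankrd37 (-0.76, adjusted p = 0.016) were lower in mT69a KO as well, against 16.0% of all genes.

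In mT6, Pfkm had 20.2 and 19 CPM in KO libraries against 15.5 and 16.4 CPM in control libraries. The test of the difference between the lines, mT69a minus mT6, gave -1.03 ± 0.23 for Pfkm (adjusted p = 0.0243), 1 call among the members against 6.62% of all genes, 4.04% above and 2.58% below 0. This call was lost in 7 of the 12 fits without 1 library, with an adjusted p up to 0.0987, and held only without mT69a control library 1 or an SPDEF-labelled library of either line. Under the block Pgk1 (-1.14, adjusted p = 0.0024) and Ankrd37 (-1.33, adjusted p = 0.00531) joined it, against 15.2% of all genes. The mean log2 CPM of the 12 HIF targets was 5.91 and 5.16 in mT69a KO libraries against 5.77 and 5.98 in mT69a control libraries, and 7.32 and 6.81 in mT6 KO libraries against 7.02 and 6.56 in mT6 control libraries. In mT69a the KO library numbered 2 lay below both control libraries and the KO library numbered 1 between them.

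The next comparison asked what the SPDEF vector changed in the knockout. It shares the KO libraries with the comparison above. Averaged over the lines, 1 member was higher, Epas1, and none lower, against 7.77% of all genes, 4.46% higher and 3.32% lower. Epas1 had 44.3 and 33.8 CPM in mT6 SPDEF-labelled libraries against 29.7 and 30.4 CPM in mT6 KO libraries, and 33.1 and 37.6 CPM in mT69a SPDEF-labelled libraries against 21.9 and 22.6 CPM in mT69a KO libraries. The groups did not overlap within either line, and the log2 fold change was 0.52 ± 0.13 (adjusted p = 0.0356). The call was lost in 7 fits without 1 library, with an adjusted p up to 0.126, and held without a control library or mT6 SPDEF library 2. Under the block, against 15.8% of all genes, Hk2 was also higher (0.58, adjusted p = 0.0242), and Hk1 (-0.36, adjusted p = 0.0117), Egln3 (-0.71, adjusted p = 0.0121), Gapdh (-0.33, adjusted p = 0.0261) and Pgam1 (-0.25, adjusted p = 0.033) were lower.

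By line, Hk2 was called in mT69a. It had 97.1 and 104 CPM in mT69a SPDEF-labelled libraries against 53 and 49.9 CPM in mT69a KO libraries, a gap without overlap, and a log2 fold change of 0.96 ± 0.23 (adjusted p = 0.0456). That was the 1 member called, against 4.25% of all genes, 2.57% higher and 1.68% lower. It was lost in 8 fits without 1 library, with an adjusted p up to 0.258, and held only without an mT6 SPDEF-labelled or mT6 control library. Under the block Epas1 (0.66, adjusted p = 0.0202) was also higher and Egln3 (-0.82, adjusted p = 0.044) lower, against 10.6% of all genes. In mT6 edgeR called 0 members against 2.69% of all genes, with 1 member at an unadjusted p under 0.05 and 0 called by DESeq2. There Hk2 had 166 and 128 CPM in SPDEF-labelled libraries against 138 and 120.4 CPM in KO libraries. Under the block Hk1 (-0.50, adjusted p = 0.024), Gapdh (-0.50, adjusted p = 0.0316) and Pgam1 (-0.39, adjusted p = 0.0404) were lower in mT6, against 7.29% of all genes. Between the lines, 0 members differed by edgeR in this response, as did 0.0138% of all genes; 2 members had an unadjusted p under 0.05 and DESeq2 called 0, and the block called 0 against 0.380% of all genes.

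SPDEF-labelled libraries were also set against control libraries, which shares libraries with both comparisons above. Averaged over the lines, 3 members were higher and 1 lower, against 14.5% of all genes, 8.04% higher and 6.41% lower. Slc16a3 had 140.4 and 150.4 CPM in mT69a SPDEF-labelled libraries against 42.9 and 66.8 CPM in mT69a control libraries, and 238 and 162 CPM in mT6 SPDEF-labelled libraries against 210.1 and 169.6 CPM in mT6 control libraries. It was apart in mT69a and overlapped in mT6. The log2 fold change was 0.74 ± 0.19 averaged (adjusted p = 0.0286) and 1.41 ± 0.27 in mT69a alone (adjusted p = 0.00806, and 0.0739 without mT69a control library 1). The averaged call was lost, with an adjusted p up to 0.0955, without either mT69a SPDEF library, mT69a control library 1, mT6 SPDEF library 1 or mT6 control library 2.

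Hk2 had 97.1 and 104 CPM in mT69a SPDEF-labelled libraries against 47.9 and 51.8 CPM in mT69a control libraries, and 166 and 128 CPM in mT6 SPDEF-labelled libraries against 139 and 79.1 CPM in mT6 control libraries. The groups were apart in mT69a and overlapped in mT6, with log2 fold changes of 0.72 ± 0.16 averaged (adjusted p = 0.0148) and 1.01 ± 0.23 in mT69a (adjusted p = 0.0174). The averaged call was lost without mT69a SPDEF library 2 or mT69a control library 1, with an adjusted p up to 0.0617, and the mT69a call without any of the 4 mT69a SPDEF-labelled and control libraries, with an adjusted p up to 0.122. Slc16a1 had 208 and 256 CPM in mT69a SPDEF-labelled libraries against 199.9 and 209 CPM in mT69a control libraries, and 153 and 169.5 CPM in mT6 SPDEF-labelled libraries against 122 and 113 CPM in mT6 control libraries. It was apart in mT6 and overlapped in mT69a, at 0.32 ± 0.09 (adjusted p = 0.049), and held its call only without mT69a SPDEF library 1, with an adjusted p up to 0.186 otherwise. Car9 had 14.1 and 18.7 CPM in mT69a SPDEF-labelled libraries against 17.1 and 30.6 CPM in mT69a control libraries, and 27 and 20.3 CPM in mT6 SPDEF-labelled libraries against 49 and 50.8 CPM in mT6 control libraries. It was apart in mT6 and overlapped in mT69a, at -0.81 ± 0.24 (adjusted p = 0.0489). The KO libraries of Car9 lay below control too, at 30.1 and 36.5 CPM in mT6 and 16.6 and 8.44 CPM in mT69a. Those of Slc16a1 lay above control in both lines, as given above. Neither difference from control was therefore particular to the SPDEF-labelled libraries. Car9 missed the threshold with the block (adjusted p = 0.0761) and held its call only without a KO library of mT69a or mT69a control library 1, with an adjusted p up to 0.174.

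**Figure D4:**
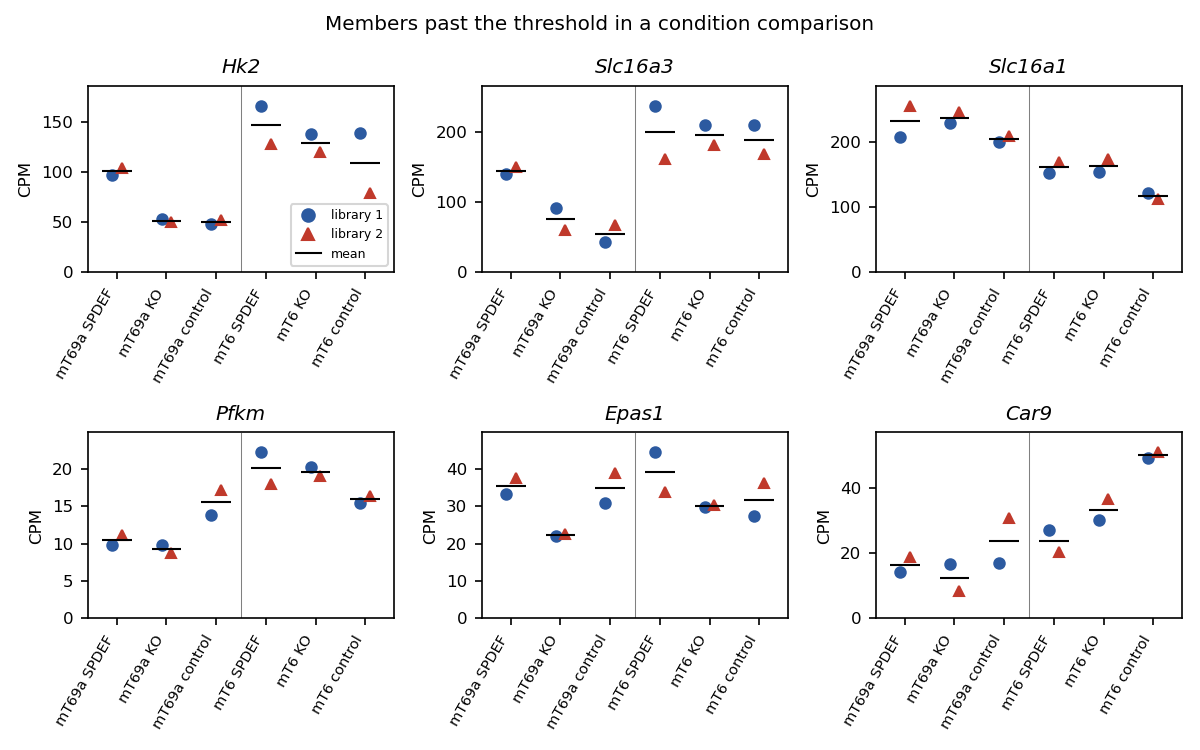
CPM of the 6 members called in a comparison of conditions, in each library (circles, number 1; triangles, number 2) with the group mean as a line and each axis starting at 0. Hk2 and Slc16a3 in mT69a are highest in the SPDEF-labelled libraries, at 97.1 to 104 and 140.4 to 150.4 CPM, and Car9 in mT6 is highest in the control libraries, at 49 and 50.8 CPM.

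Under the block 10 members were called between SPDEF-labelled and control libraries averaged over the lines, 6 higher and 4 lower, against 25.4% of all genes. Besides Hk2, Slc16a1 and Slc16a3, these were Pfkfb3 (0.89, adjusted p = 0.0498), Pdk1 (0.25, adjusted p = 0.0344) and Eno1 (0.22, adjusted p = 0.0303) among the higher, and Egln3 (-0.56, adjusted p = 0.0239), Gapdh (-0.28, adjusted p = 0.036), Hk1 (-0.27, adjusted p = 0.0384) and Pgam1 (-0.23, adjusted p = 0.036) among the lower. In mT69a, 2 members were higher and 1 lower, against 12.4% of all genes, 7.01% higher and 5.36% lower. The lower gene was Pfkm, with 9.79 and 11.1 CPM in SPDEF-labelled libraries against 13.9 and 17.2 CPM in control libraries (-0.58 ± 0.16, adjusted p = 0.045). The mT69a KO libraries, at 9.84 and 8.79 CPM, lay below control as well. The call of Pfkm held only without an mT6 SPDEF-labelled library and its adjusted p went up to 0.277. Under the block Bnip3l (0.52, adjusted p = 0.0121) was also higher, and Egln3 (-1.12, adjusted p = 0.00586) and Aldoa (-0.44, adjusted p = 0.0351) lower, against 22.5% of all genes. The median of all genes on chromosome 12, which holds Egln3, was -0.39 for SPDEF over control in mT69a, and -0.34 for KO over control; its part in the result was not tested. In mT6 edgeR called 0 members against 8.60% of all genes, with 3 at an unadjusted p under 0.05 and 2 called by DESeq2. Under the block Slc16a1 (0.45, adjusted p = 0.00885), Pgk1 (0.54, adjusted p = 0.0199) and Eno1 (0.33, adjusted p = 0.03) were higher there, against 19.0% of all genes.

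Beside these members, a few genes of the listed neighbouring pathways were called between conditions averaged over the lines. Over all genes the share called was 5.60% for KO over control, 7.77% for SPDEF over KO and 14.5% for SPDEF over control. Mpc1, a subunit of the carrier that brings pyruvate into mitochondria, had 42.8 and 41 CPM in mT69a SPDEF-labelled libraries, 18 and 17.3 CPM in KO, and 26.1 and 25.6 CPM in control. In mT6 it had 37 and 38.2 CPM in SPDEF-labelled libraries, 21.1 and 22.7 CPM in KO, and 30.7 and 30 CPM in control. Within each line all 3 groups were apart, SPDEF-labelled highest and KO lowest. The averaged log2 fold changes were 1.01 ± 0.08 for SPDEF over KO (adjusted p = 4.39e-05), -0.51 ± 0.08 for KO over control (adjusted p = 0.00408) and 0.50 ± 0.08 for SPDEF over control (adjusted p = 0.00188), and each stayed past the threshold without any single library. Mpc1 lies on chromosome 17. In mT6 the median of all tested genes there was -0.44 for KO over control and -0.49 for SPDEF over control. In mT69a these medians were 0.03 and 0.05. For SPDEF over KO the median was -0.05 in mT6 and 0.00 in mT69a. The part of the chromosome in the Mpc1 differences was not tested. Mpc1 was 1 of 12 measured other glycolysis genes higher for SPDEF over KO, where 1 was lower, Bpgm, which makes 2,3-bisphosphoglycerate (-0.73 ± 0.10, adjusted p = 0.00129). For KO over control 2 of the 12 were lower, Mpc1 and Mpc2 (-0.75 ± 0.12, adjusted p = 0.00482). For SPDEF over control 2 were higher and 2 lower.

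Fbp2, a fructose bisphosphatase of gluconeogenesis, had 15.9 and 15 CPM in mT69a SPDEF-labelled libraries, 26.2 and 27.4 CPM in KO, and 44.1 and 37.4 CPM in control. In mT6 it had 11.2 and 9.98 CPM in SPDEF-labelled libraries, 28.3 and 32.3 CPM in KO, and 22.5 and 23.7 CPM in control. The SPDEF-labelled libraries were lowest in both lines (SPDEF over KO, -1.16 ± 0.10, adjusted p = 7.53e-05), the 1 call among 4 measured genes of its list, where 7.77% of all genes were called. H6pd, the hexose 6-phosphate dehydrogenase of the endoplasmic reticulum, was likewise lower for SPDEF over KO (-0.82 ± 0.10, adjusted p = 0.000564), the 1 call among 8 pentose phosphate genes. Hif3a had 0.699 and 0.435 CPM in mT69a KO libraries against 1.75 and 3.3 CPM in mT69a control libraries, and 6.19 and 7.18 CPM in mT6 KO libraries against 13.3 and 17.8 CPM in mT6 control libraries. It was lower in KO in both lines (-1.65 ± 0.24, adjusted p = 0.00306), the 1 call among 11 measured HIF regulators averaged over the lines, where 5.60% of all genes were called. In mT69a alone Cul2, a scaffold of the ligase that holds Vhl, was lower in KO as well (-0.54 ± 0.11, adjusted p = 0.0121). In mT6 Cul2 was higher in KO, at 44.1 and 43 CPM against 40.4 and 35.9 CPM in control. The difference, mT69a minus mT6, was -0.74 ± 0.16 (adjusted p = 0.0185). Cul2 lies on chromosome 18, where the median of all tested genes was -0.49 for KO over control in mT69a. That median was 0.08 in mT6 and -0.56 for the difference, mT69a minus mT6. The part of the chromosome in the Cul2 result was not tested. Of the 31 other HIF-responsive genes, 3 were higher and none lower for KO over control, 1 higher and 2 lower for SPDEF over KO, and 4 higher and 1 lower for SPDEF over control. Of the 25 pyruvate dehydrogenase and TCA cycle genes, 1 was higher in KO than in control, Pdp1 (0.65 ± 0.11, adjusted p = 0.00603).

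These genes also differed between the libraries numbered 2 and 1. With the 6 groups held apart, 16 of 35 members were lower and none higher in libraries numbered 2, against 26.0% of all genes, 13.5% lower and 12.6% higher. Of these, 9 were enzymes, with Pgam1 at -0.44 (adjusted p = 0.000759), Pgk1 at -0.41 (adjusted p = 0.00558), Gapdh at -0.40 (adjusted p = 0.00321) and Ldha at -0.31 (adjusted p = 0.00537). A further 5 were HIF targets, among them Ankrd37 at -0.50 (adjusted p = 0.00853) and Bnip3l at -0.35 (adjusted p = 0.00675). Pfkfb3 had the widest gap, at -1.55 (adjusted p = 0.00436), and was lower in all 6 groups. The count was 10 without mT6 KO library 2, 24 without mT69a control library 1 and between these without any other library. The labels do not say what a number stands for. The mitochondrial share of counts moved with it, and so did 6 of 7 epithelial markers, 4 lower and 2 higher in number 2; their part in the result was not tested, and without the mitochondrially encoded genes, an alternative chosen after seeing the data, 14 members were lower.

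The shift was uneven over the groups. The median over the 35 members, as log2 CPM of library 2 minus library 1, was -0.49 in mT6 SPDEF-labelled, -0.33 in mT6 KO and -0.34 in mT6 control libraries. In mT69a it was -0.06 in SPDEF-labelled, -0.46 in KO and 0.06 in control libraries, while the medians of all genes lay between -0.03 and 0.00. For HIF targets alone it ran from -0.66 in mT69a KO to 0.25 in mT69a control. The mT69a KO and control libraries numbered 2 thus moved opposite ways, which lies within the KO comparison of that line: Car9 had a within-number difference, KO minus control, of -1.84 in number 2 and -0.05 in number 1. The line difference was present within both numbers, where Bnip3 differed by -2.34 in number 2 and -2.79 in number 1, Hif1a by -1.09 in number 2 and -1.85 in number 1, and Slc16a1 by 0.66 in number 2 and 0.57 in number 1.

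**Figure D5:**
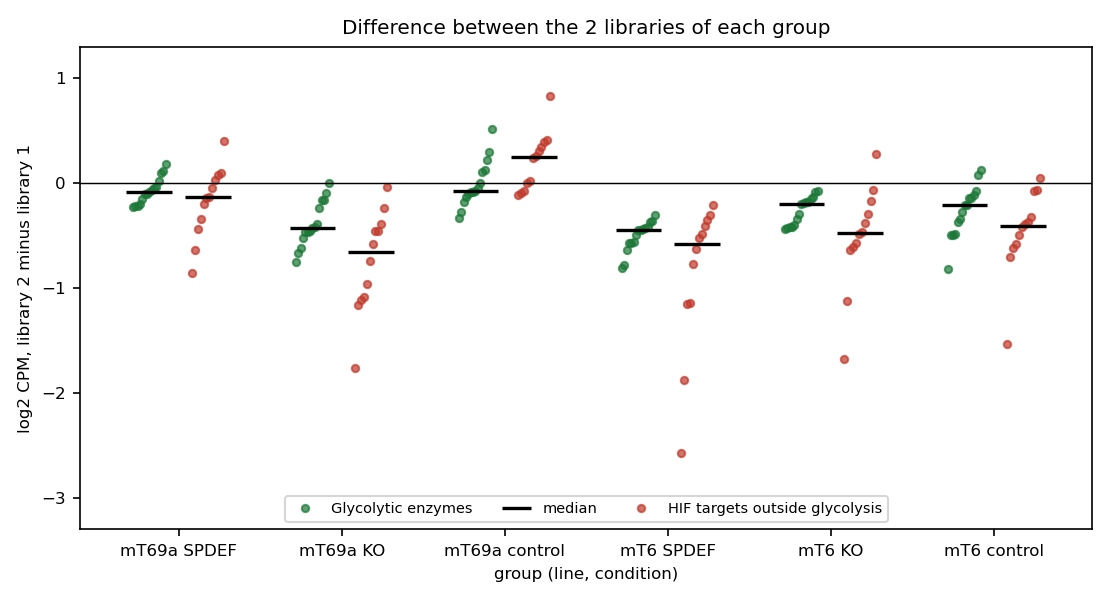
Difference in log2 CPM between library 2 and library 1 of each group, for each glycolytic enzyme (green) and each HIF target outside glycolysis (red), with black bars at the medians. The medians of both kinds lie below 0 in 5 groups, and in mT69a control the median of HIF targets is 0.25 and that of enzymes -0.07.

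Some members have near-identical copies to which reads could be assigned. Other genes with transcripts matching Gapdh at 95% identity or more, 99 of 103 of them pseudogenes, held 5.2% to 7.16% of the counts of Gapdh and these genes together. For Pgk1 the share was 9.09% to 15.1%, for Bnip3 1.77% to 9.02%, for Eno1 2.59% to 3.76% and for Pkm 1.75% to 3.23%. For Pfkm it was 0.493% to 4.69%, from 1 other gene. Pfkp overlaps Pitrm1, whose counts came to 16.1% to 37.9% of the counts of both genes together. That share holds all counts of Pitrm1, a gene expressed in its own right, and is not the uncertainty of Pfkp. These shares do not measure how many reads were assigned to the wrong gene, which was not tested. The values of the members with near copies are uncertain for that reason.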

How the data were processed

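Strand-specific total RNA libraries (TruSeq Stranded Total RNA, per the labels' protocols) of 12 organoid samples were read from the deposited gene and transcript tables. Per the submitters' processing notes the tools were FastQC 0.11.8, STAR 2.5.2b and RSEM 1.3.0 on GRCm38.p6. The authors deposited RSEM expected counts per gene, TPM scaled to the same total in each library, and isoform percentages (percent of a gene's abundance held by each transcript). Depth was 9094295 to 28903831 expected counts. Identifiers without a symbol (95 of 53715) held 0.011% of counts.

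Expected counts were rounded to whole numbers, filtered with filterByExpr (14473 genes left) and scaled by TMM. They were fitted with edgeR 4.0.16 (R 4.3.3), robust quasi-likelihood, with 6 group means over all 12 libraries and 6 residual degrees of freedom; the biological coefficient of variation was 19.2%. There were 14 comparisons, each adjusted by Benjamini-Hochberg over all genes tested, with a threshold of 0.05. Library number as a block was an alternative. Deviations of same-numbered libraries from their group means correlated at 0.205 to 0.531 over all 15 pairs of groups. Same-numbered libraries thus shared a shift, though the labels do not say what a number stands for. The main fit leaves that shift in the spread, and blocked values stand beside results they change. Other alternatives were RLE size factors, no count filter, DESeq2 1.42.0, limma 3.58.1 on log2(TPM + 1) and log2(TPM + 0.1) with a mean TPM of at least 0.5 or no filter, and leaving out each library. The edgeR fit was also run on simulated counts with known changes. Those counts were drawn independently for each library, with the same spread for every gene and no effect of library number. The simulation therefore cannot show how the fit behaves under the shift shared by same-numbered libraries. Near copies were found with blastn 2.17.0. CPM are TMM-scaled. Counting error only underlies low values, and 3 counts were taken as the floor of a library.

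The members and lists were chosen with earlier results of these data known. All members may be named; library values are given for those past the threshold in any comparison, and of each other list up to 3 genes with the smallest adjusted p. A further allele shared by all 12 samples is not reported here.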

Additional observations from a re-analysis of the deposited data

Results flagged for a closer look

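For Pfkm the difference between the clones labelled KO and control was not the same in both lines, by the test of that difference itself. Mouse Spdef was near 0 in mT69a control libraries too, and clone and condition cannot be told apart. The difference, KO over control in mT69a minus that in mT6, was -1.03 on the log2 scale. Pfkm was lower in both mT69a KO libraries than in both mT69a control libraries, and higher in both mT6 KO libraries than in both mT6 control libraries.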

How the results depend on the processing

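Counts of members called, as edgeR's main value followed by the lowest and highest count when 1 library was left out, were as follows. For KO over control they were 0 (0 to 1) averaged, 0 (0 to 0) in mT6, 1 (0 to 2) in mT69a and 1 (0 to 1) for the difference of lines. For SPDEF over KO they were 1 (0 to 2), 0 (0 to 1), 1 (0 to 1) and 0 (0 to 0). For SPDEF over control they were 4 (0 to 3) averaged, 0 (0 to 1) in mT6 and 3 (0 to 4) in mT69a. For mT69a over mT6 they were 14 (7 to 16) in controls and 27 (22 to 28) averaged, and for number 2 over number 1 they were 16 (10 to 24).

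With the replicate block the counts for KO over control were 2 averaged, 3 in mT6, 3 in mT69a and 3 for the difference. For SPDEF over KO they were 6, 3 and 3 in the same order, and for SPDEF over control 10, 3 and 6. The block also called 21 members between the control libraries of the lines. It changed no other count by more than 1.5 times. Without a count filter, 27661 genes were tested and the calls were 2, 5, 8 and 8 for KO over control, 8, 2, 6 and 2 for SPDEF over KO, and 4 in mT6 and 8 in mT69a for SPDEF over control. DESeq2 called 2 averaged, 1 in mT6 and 2 in mT69a for KO over control, 3 averaged and 3 in mT69a for SPDEF over KO, and 2 in mT6 for SPDEF over control. The 3 limma fits on TPM called 0 members in KO over control in mT69a and for the difference, in SPDEF over KO averaged and in mT69a, and in SPDEF over control averaged and in mT69a. Between the lines they called 5, 6 and 4 in controls, and without a filter 14 averaged. The cause of these moves was not tested. TPM fits shifted the median of all genes for SPDEF over KO by -0.11 (pseudocount 1) and -0.13 (pseudocount 0.1). Where a member was past the threshold in the main fit or in the alternative, its direction was not reversed. Directions of values past it in neither fit were not compared. Over single genes 2605 values kept their side of the threshold, 268 lost it and 167 gained it.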
